A study of Homo sapiens with 7 samples.

Results

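H3K4me1 was examined at 10 genes of the G1 checkpoint, which were CDKN2A with its neighbours CDKN2B and MTAP, the cyclin genes CCND1, CCND2, CCND3 and CCNE1, the kinase genes CDK4 and CDK6, and RB1. These were 10 of the 20033 protein-coding genes of GENCODE release 44. They were chosen by name, and every H3K4me1 interval that overlapped the gene body or the 50 kb on either side of it (the window) was counted. Intervals are the genomic segments that peak calling by the authors returned as enriched over input.

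The cells were SW1990, an established human pancreatic cancer line. One group carried a negative control shRNA (NC) and the other was labelled as a KMT2D knockdown by shRNA (KMT2D-KD), KMT2D being a methyltransferase that places H3K4me1, the monomethyl mark on lysine 4 of histone H3. Each group gave 1 H3K4me1 library, 1 KMT2D library and 1 EBF2 library, so that no difference below has a replicate check, and 1 input library served all 6 lists. The labels do not say which cells the input came from, and the KMT2D level of the knockdown cells was not analysed here.

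H3K4me1 is known as the mark of enhancers and of the flanks of active promoters, whereas the promoter nucleosomes themselves usually carry trimethylation in its place. In the G1 phase, D-type cyclins bind CDK4 and CDK6, the complexes phosphorylate the RB1 protein, and E2F transcription factors are released to switch on S-phase genes such as CCNE1. CDKN2A and CDKN2B encode inhibitors of CDK4 and CDK6, and CDKN2A also encodes ARF, a stabiliser of p53, from another reading frame. MTAP, which encodes a methionine salvage enzyme, lies beside them, and the 3 genes are often lost together in pancreatic cancer.

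The NC list held 64843 H3K4me1 intervals over 32.3 Mb and the KMT2D-KD list 92135 over 49.7 Mb, a log2 ratio (KMT2D-KD / NC) of 0.51 with a 95% counting interval of 0.49 to 0.52. The lowest background recovered from peak calling was 9.89 (NC) and 9.29 (KMT2D-KD) fragments per 1000 bases. The narrowest interval, 187 bases in NC and 176 in KMT2D-KD, was taken as the fragment length. These values are background levels, and the read depth of the 2 libraries was not compared. The weakest listed interval rested on 8 (NC) and 7 (KMT2D-KD) fragments, and the median on 12 in both. H3K4me1 below these fragment numbers was not detectable in these lists. All 7 epithelial and ductal marker genes, such as KRT19 and EPCAM, had intervals in both lists, with a median of 8 in NC and 21 in KMT2D-KD. Of 8 markers of other cell types, 6 and 7 respectively were marked, with medians of 3.5 and 7, so that the presence of intervals did not separate the marker groups, and NEUROD1 had none in either list.

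Intervals were present at 9 of the 10 genes in NC and at all 10 in KMT2D-KD, with CCNE1 the exception in NC. Among all genes, the NC list marked 75.8% of windows and the KMT2D-KD list 84.5%. The number was higher in KMT2D-KD at 6 of the 10 genes (CDKN2A, MTAP, CCND3, CDK4, RB1 and CCNE1), equal at CCND1 and CCND2, and lower at CDKN2B and CDK6. More intervals in KMT2D-KD were found at 67.8% of all genes and fewer at 9.88%, so that the 6 genes with more lay near the share of the genome. A median gene had 4 NC intervals and 7 KMT2D-KD intervals, against 3 and 5 over all genes. Per 100 kb of window, the medians were 2.63 in NC and 3.74 in KMT2D-KD, against 1.83 and 3.31 over all genes. When both lists were limited to equal numbers of top intervals, CDKN2A had fewer in KMT2D-KD than in NC, and CCND3 had 20 in each list.

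**Figure D1:**
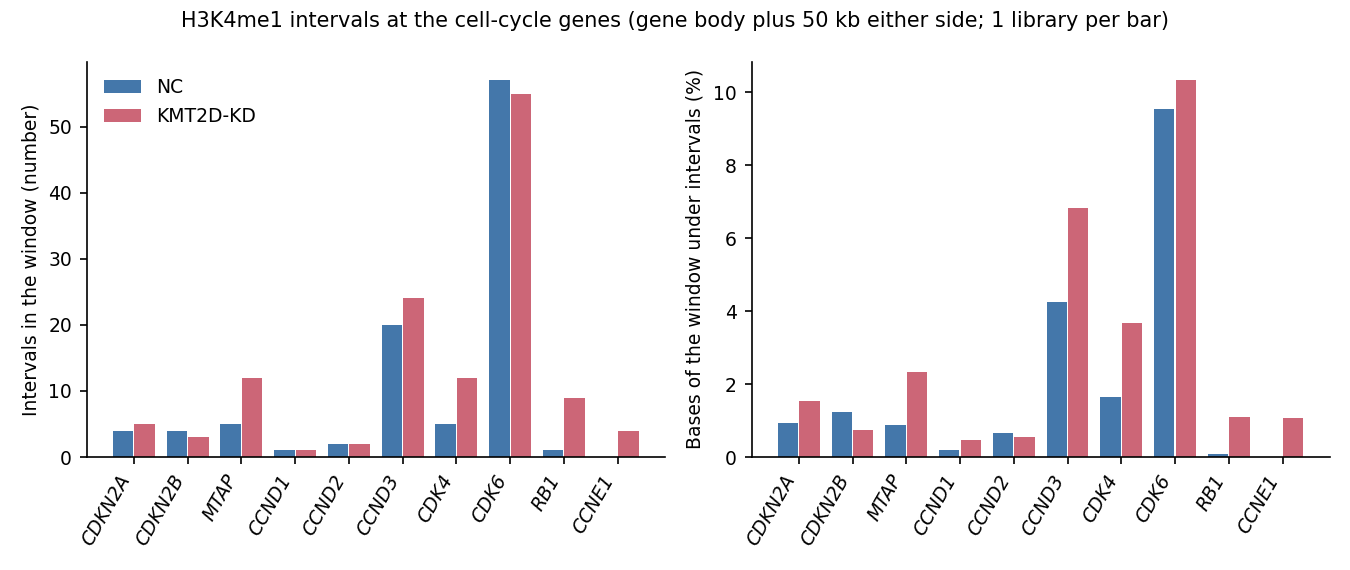
Number of H3K4me1 intervals (left) and share of window bases under intervals in % (right) at each gene in NC (blue) and KMT2D-KD (red), 1 library per bar, with no error bars because there were no replicates. CDK6, with 57 and 55 intervals, and CCND3, with 20 and 24, stand above the other genes in both lists.

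After overlapping windows were joined, 8 windows of 1719 kb in all held 95 NC intervals and 122 KMT2D-KD intervals. The log2 ratio was 0.36, with a counting interval of -0.04 to 0.76 that included both 0 and the 0.51 of the whole lists. The covered length was 47.4 kb and 66.0 kb. CDK6 supplied 60% of the NC and 45.1% of the KMT2D-KD intervals. Without CDK6, a split that was not among the planned settings, the other windows held 38 and 67, a log2 ratio of 0.82 (0.22 to 1.43). This counting interval left out 0 but included the 0.51 of the whole lists. It treats neighbouring intervals as independent, so leaving out 0 carries little weight. When the KMT2D-KD list was limited to its 64843 highest −log10 q values, as many as NC had, the log2 ratio over the 8 windows was -0.05 (-0.48 to 0.38). Over intervals with −log10 q of at least 5 it was 0.86 (0.05 to 1.70), and 0.86 (0.84 to 0.89) in the whole lists, which then held 16393 and 29832 intervals.

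Of the 95 NC intervals, 68.4% overlapped a KMT2D-KD interval, and of the 122 KMT2D-KD intervals 54.1% overlapped an NC interval, against 69.7% and 46.6% in the whole lists. Fold enrichment over input at the summit was higher in KMT2D-KD in 46 of 65 shared pairs (70.8%), and in 69.1% of the 45195 pairs of the whole lists. The median log2 difference of fold enrichment was 0.24 at these genes and 0.22 in the whole lists. Fold enrichment depends on the background, whose lowest value was 1.85 in NC and 1.64 in KMT2D-KD. At these lowest values 12 fragments gave 4.56 in NC and 4.93 in KMT2D-KD. The comparisons of fold enrichment between lists were not adjusted for this difference.

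**Figure D2:**
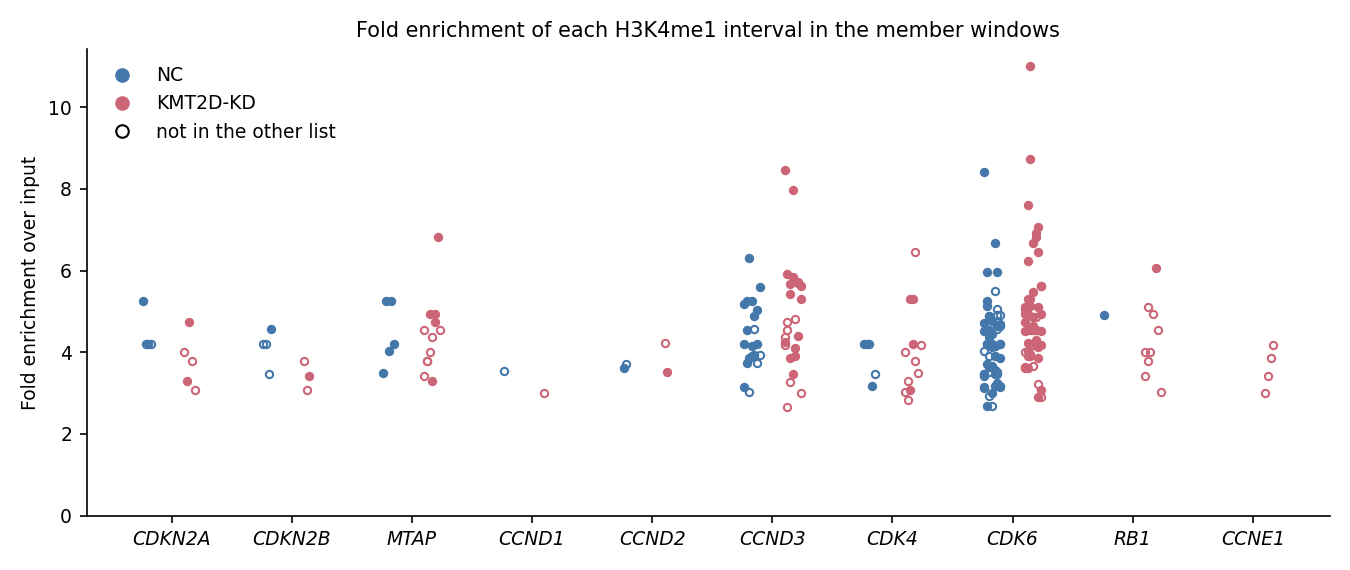
Fold enrichment over input of each H3K4me1 interval in the 10 windows, NC in blue and KMT2D-KD in red; open circles overlap no interval of the other list. The highest points are at CDK6, 8.43 in NC and 11.0 in KMT2D-KD, and at CCND3 in KMT2D-KD, 8.47.

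Both inhibitor genes had intervals in their windows, all but 1 of them outside the gene bodies. CDKN2A (ENSG00000147889.18, chr9:21967752-21995301, minus strand) had 4 NC intervals and 5 KMT2D-KD intervals, which covered 1207 and 1947 bases. The log2 ratio of 0.32 had a counting interval of -1.89 to 2.66, and a difference was not detectable at these numbers. The 3.14 (NC) and 3.92 (KMT2D-KD) intervals per 100 kb of CDKN2A lay above 65.5% and 55.7% of all genes. The gene body itself held a single interval, which was in the NC list. This interval, chr9:21988849-21989055, lay in an intron 6.25 kb from the 5′ end and showed 11 fragments against a background of 1.85, a 4.21-fold enrichment. Its −log10 q of 3.49 was higher than that of 42.8% of the NC list. From the RefSeq start of CDKN2A at position 21974857, this NC interval lay 13992 bases upstream. The nearest KMT2D-KD interval lay 52512 bases from that start. The other windowed intervals of CDKN2A lay in the last part of MTAP or in the antisense lncRNA gene CDKN2B-AS1.

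The 200 bases around the summit of that CDKN2A interval are shown because it was the single H3K4me1 interval between the neighbours of the gene. The sequence is the plus strand of the hg38 reference. Here and below, capitals mark letters that matched any of 5 motifs searched on both strands. The letters searched were TGANTCA for AP-1 factors, GGAATG for TEAD factors, AGATAA for factors of the GATA family, TGTTTAC for forkhead (FOX) factors and TTTNGCGC for E2F factors.
CDKN2A, NC, chr9:21988853-21989052: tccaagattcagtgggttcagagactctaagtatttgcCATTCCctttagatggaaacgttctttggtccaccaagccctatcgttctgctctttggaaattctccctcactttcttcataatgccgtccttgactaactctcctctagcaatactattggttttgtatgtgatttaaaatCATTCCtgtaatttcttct
The capitals are the TEAD letters on the opposite strand, and the sequence held 39.5% G and C. In NC, 12.4% of all summit windows of this length contained the TEAD letters.

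CDKN2B (ENSG00000147883.12, chr9:22002903-22009305, minus strand), whose product p15 also inhibits CDK4 and CDK6, had 4 NC intervals and 3 KMT2D-KD intervals. They covered 1302 and 799 bases, and the log2 ratio of -0.42 had a counting interval of -3.19 to 2.15. With equal list sizes CDKN2B had 4 in NC and 0 in KMT2D-KD. Its 3.76 (NC) and 2.82 (KMT2D-KD) intervals per 100 kb lay above 70.5% and 45.5% of all genes. No interval lay in the gene body in either list. The nearest lay 20250 bases from the 5′ end in NC, which was the CDKN2A intron interval, and 31180 bases in KMT2D-KD, at chr9:22040485-22040728 in an intron of CDKN2B-AS1. In both lists all intervals of CDKN2B had −log10 q under 5, and the highest was 4.16 in NC and 2.81 in KMT2D-KD.

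MTAP (ENSG00000099810.21, chr9:21802636-21937651, plus strand) had 5 NC intervals and 12 KMT2D-KD intervals, covering 2085 and 5489 bases. The log2 ratio was 1.26 (-0.35 to 3.12), a value higher than that of 78.4% of the 14764 genes with intervals in both lists. All 5 NC intervals overlapped intervals in KMT2D-KD and lay in introns. The strongest in KMT2D-KD, chr9:21830798-21831567, had a fold enrichment of 6.83 with 17 fragments, and the NC interval at the same place, chr9:21830833-21831489, had 4.04 with 13 fragments. With equal list sizes 8 KMT2D-KD intervals remained at MTAP, and with −log10 q of at least 5 there were 2 in NC and 1 in KMT2D-KD.

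One KMT2D-KD interval, chr9:21801575-21801799, lay 837 bases before the 5′ end of MTAP and had no counterpart in NC. It was a weak one, with 9 fragments, 3.79-fold enrichment and −log10 q 2.81. Its sequence is shown because MTAP was 1 of the 2 genes with H3K4me1 within 1000 bases of the 5′ end in KMT2D-KD.
MTAP, KMT2D-KD, chr9:21801514-21801713: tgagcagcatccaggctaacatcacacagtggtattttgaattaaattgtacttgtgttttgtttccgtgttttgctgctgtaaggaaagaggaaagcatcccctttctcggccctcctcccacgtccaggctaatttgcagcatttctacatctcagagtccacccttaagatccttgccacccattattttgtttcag
It held none of the 5 motifs, with 44.5% G and C and 3 CpG pairs.

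The windows of these 3 genes overlap, and together held 9 NC and 15 KMT2D-KD intervals over 307 kb. From the last interval before CDKN2A to the first after it, both lists pooled, the stretch chr9:21922537-22040484 measured 118 kb. It contained CDKN2A and CDKN2B whole and the 3′ end of MTAP. It held 1 NC interval, the one in the CDKN2A intron, which divided it into pieces of 66.3 kb (chr9:21922537-21988848) and 51.4 kb (chr9:21989056-22040484) free of intervals in both lists. The KMT2D-KD list alone had no interval over 118 kb. That stretch is bounded by intervals of the same list, so its count of 0 was fixed by its definition and sets no limit. The KMT2D and EBF2 lists had no interval in the stretch either.

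The distance between the intervals flanking a gene spans the gene body and any interval in it, so it is not a gap and grows with gene length. Of 19904 protein-coding genes with an interval on either side, 10544 (53.0%) had a longer such distance than CDKN2A. CDK6 was among them, with 305 kb and 52 NC intervals in its body. Among stretches free of intervals genome-wide, of which there were 108788, 8.68% were longer than the 66.3 kb piece and 11.1% longer than the 51.4 kb piece. The whole 118 kb, which is not free because of its 1 NC interval, was exceeded by 4.70% of them. In the KMT2D-KD list alone, 5.64% of 92103 free stretches were longer than its 118 kb over CDKN2A. Of the free stretches that reached within 2 Mb of CDKN2A the longest was 2492 kb, chr9:23683383-26175011, with ELAVL2, IZUMO3 and TUSC1. Most of it lay beyond 2 Mb, and the longest wholly inside was 998 kb, chr9:22684895-23683186. Another, of 173 kb, chr9:21070590-21243540, contained 9 interferon genes including IFNB1. The genes elsewhere whose flanking intervals lay at the most similar distance were FRRS1L with 118 kb and no interval in its body, CLASRP with 118 kb and 1 interval in NC and 2 in KMT2D-KD, and ENSG00000266202 with 118 kb and 5 and 9.

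**Figure D3:**
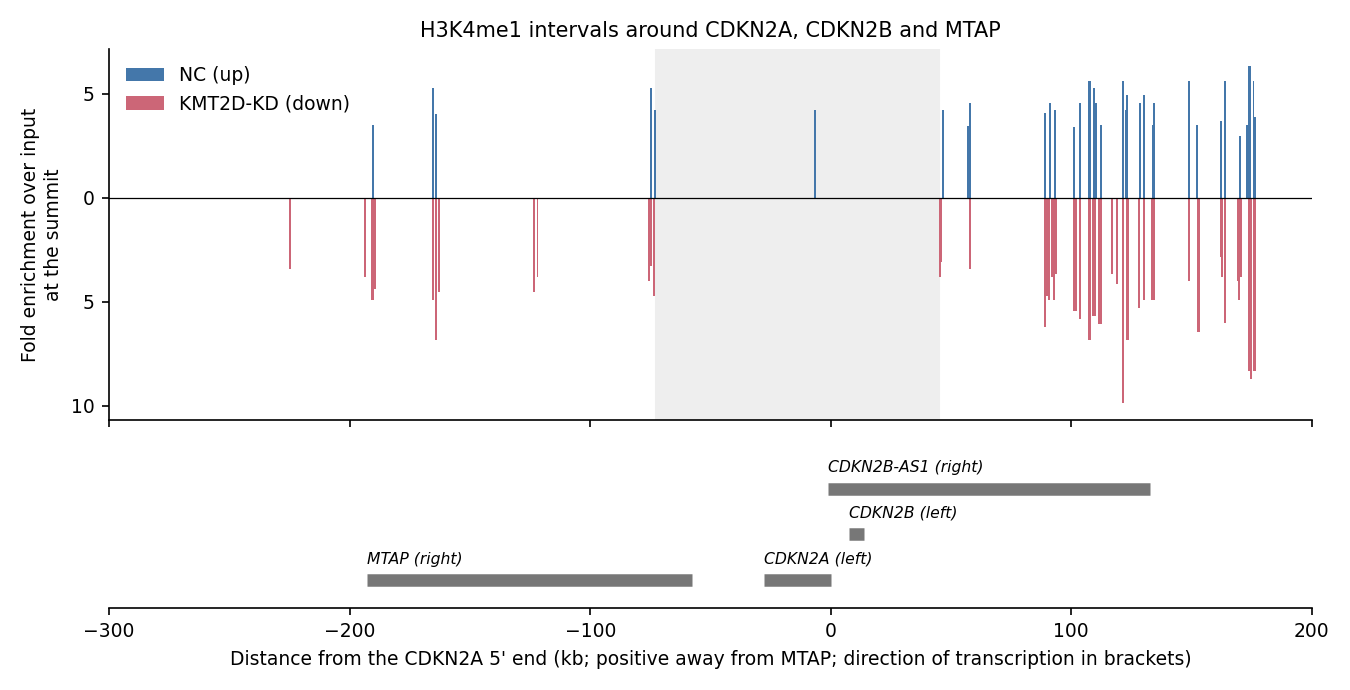
H3K4me1 intervals around CDKN2A by distance from its 5′ end in kb, with fold enrichment over input upward for NC (blue) and downward for KMT2D-KD (red); gene bodies are drawn below. The shaded 118 kb from the last interval before CDKN2A to the first after it holds 1 interval, in NC, and intervals are dense toward the far end of CDKN2B-AS1.

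On the other side of the stretch, intervals were dense. From chr9:22040485 to the end of CDKN2B-AS1 at position 22128103, an 87.6 kb region chosen after its values were seen, 17 NC and 20 KMT2D-KD intervals were listed. They covered 8.72% and 17.4% of the bases. In NC 15 of the 17 overlapped a KMT2D-KD interval, and 13 of the 20 in KMT2D-KD overlapped an NC interval. The strongest in KMT2D-KD, chr9:22116336-22117352, had a fold enrichment of 9.87 and lay 121 kb upstream of the CDKN2A 5′ end. In NC a pair of intervals tied at 5.62, chr9:22102366-22103317 and chr9:22116535-22116784, and the latter overlapped that strongest KMT2D-KD interval. In the 500 kb upstream of CDKN2A 47 NC and 50 KMT2D-KD intervals were listed, and in the next 500 kb 1 and 2.

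The background recovered for an interval describes the local input level, relative to the lowest background of its list, which is a floor. At CDKN2A and CDKN2B its median was 1.0 in NC, and 1.06 and 1.0 in KMT2D-KD, and at MTAP it was 1.0 in both lists. The highest median was 1.19 in NC, at CDK6 and CCND3, and 1.42 in KMT2D-KD, at CCND1. A local input level below the genome-wide mean cannot be seen in these values, and gene copy number was not tested.

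D-type cyclins differed widely from each other. CCND1 (ENSG00000110092.4, chr11:69641156-69654474), which encodes cyclin D1, had 1 interval in each list, and they lay at different places. The NC interval, chr11:69690072-69690301, was intergenic, at 48916 bases from the 5′ end, and 3.55-fold enriched. The KMT2D-KD interval, chr11:69673036-69673571, lay over a coding exon of the neighbouring gene LTO1, at 31880 bases, and was 3.02-fold enriched. Both were weak, with −log10 q of 2.50 and 1.83. Per 100 kb, 0.882 intervals in each list placed CCND1 above 34.9% of genes in NC and 22.9% in KMT2D-KD.

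CCND2 (ENSG00000118971.9, chr12:4269771-4305353), which encodes cyclin D2, had 2 intervals in each list, and all 4 lay in introns of TIGAR, the next gene downstream. The pair that overlapped between lists began at chr12:4322850 in NC and chr12:4322799 in KMT2D-KD, 53 kb from the CCND2 5′ end, with fold enrichments of 3.62 and 3.52. The gene bodies of CCND1 and CCND2 held no interval in either list.

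CCND3 (ENSG00000112576.13, chr6:41934934-42050357, minus strand), which encodes cyclin D3, had 20 NC intervals and 24 KMT2D-KD intervals over 9134 and 14683 bases, a log2 ratio of 0.26 (-0.65 to 1.20). At 9.28 per 100 kb in NC and 11.1 in KMT2D-KD, its density was above 92.9% and 88.3% of all genes. Of these intervals 9 in NC and 11 in KMT2D-KD lay in the gene body, and the window contains 6 other protein-coding genes, to which the rest may belong. Fold enrichment ranged from 3.03 to 6.31 in NC and from 2.66 to 8.47 in KMT2D-KD. It was higher in KMT2D-KD in 11 of 15 shared pairs (73.3%), near the 69.1% of the whole lists.

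The strongest CCND3 interval in NC, chr6:41919308-41919828, lay in an intron of MED20, whereas the strongest in KMT2D-KD, chr6:41966081-41969088, was a stretch of 3008 bases in an intron of CCND3 with 23 fragments, 8.47-fold enrichment and −log10 q 14.1. The bases around its summit are given as the strongest intronic site of a D-type cyclin gene.
CCND3, KMT2D-KD, chr6:41967503-41967702: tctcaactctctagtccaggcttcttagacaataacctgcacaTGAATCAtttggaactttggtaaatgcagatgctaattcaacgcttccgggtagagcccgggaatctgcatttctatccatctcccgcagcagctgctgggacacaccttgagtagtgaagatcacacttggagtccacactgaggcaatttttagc
The capitals mark an AP-1 match, and such letters were present in 7.78% of all KMT2D-KD summit windows. At CCND3 the background reached 2.67 times (NC) and 2.83 times (KMT2D-KD) the lowest, the highest value among the 10 genes in each list.

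CDK4 (ENSG00000135446.17, chr12:57747727-57756013, minus strand) encodes a partner kinase of the D-type cyclins. CDK4 had 5 NC intervals and 12 KMT2D-KD intervals, covering 1791 and 3975 bases. The log2 ratio of 1.26 (-0.35 to 3.12) equalled that of MTAP, and with equal list sizes 6 KMT2D-KD intervals remained. The gene is 8.29 kb long and 10 other protein-coding genes lie at least partly in its window. The body held 2 NC intervals and 4 KMT2D-KD intervals. The strongest in KMT2D-KD, chr12:57795129-57795454 with a fold enrichment of 6.45 and 17 fragments, lay in an intron of TSFM, and no NC interval overlapped it.

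At the 5′ end of the CDK4 record, the nearest interval lay 1333 bases inside the gene in NC and 136 bases before it in KMT2D-KD. The latter, chr12:57756149-57756423, had 9 fragments and a fold enrichment of 3.79, and lay in an intron of MARCHF9. Its sequence is shown as the other interval within 1000 bases of a 5′ end.
CDK4, KMT2D-KD, chr12:57756169-57756368: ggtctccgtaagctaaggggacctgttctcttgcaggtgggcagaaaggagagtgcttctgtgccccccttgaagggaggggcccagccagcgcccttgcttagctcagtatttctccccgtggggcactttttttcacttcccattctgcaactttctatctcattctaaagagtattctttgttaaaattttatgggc
It contained none of the 5 motifs. The RefSeq start of CDK4 at position 57752310 lies within the GENCODE record, and from that start the nearest interval was 1066 (NC) and 1421 (KMT2D-KD) bases away, so that the call at this 5′ end depends on the annotation.

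CDK6 (ENSG00000105810.10, chr7:92604921-92836573, minus strand), the other partner kinase, had the most intervals of the 10 genes in NC, 57, and in KMT2D-KD, 55. They covered 31637 and 34231 bases, or 9.54% and 10.3% of the window, and the log2 ratio was -0.05 (-0.61 to 0.51). This counting interval included 0 and, at its upper end, the 0.51 of the whole lists, and 10.6% of genes with intervals in both lists had a lower ratio. With 17.2 (NC) and 16.6 (KMT2D-KD) intervals per 100 kb, CDK6 stood above 99.1% and 96.4% of all genes. The body contained 52 of the NC intervals and 50 of the KMT2D-KD intervals.

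While the number was level, the intervals with −log10 q of at least 5 were 12 in NC and 21 in KMT2D-KD, beside 16393 and 29832 in the whole lists. With equal list sizes CDK6 had 57 in NC and 49 in KMT2D-KD. In 28 of 38 shared pairs (73.7%) fold enrichment was higher in KMT2D-KD, near the 69.1% of the whole lists. From the 5′ end in steps of 50 kb along the gene, there were 12, 24, 8, 3 and 10 summits in NC and 14, 19, 11, 3 and 8 in KMT2D-KD, so that the second 50 kb was richest in both lists. None lay in the 50 kb upstream of the 5′ end, and the nearest to it was 5721 (NC) and 6168 (KMT2D-KD) bases away.

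The strongest CDK6 interval in NC, chr7:92749704-92750474, had 23 fragments and 8.43-fold enrichment, with −log10 q 13.3, which was higher than 99.3% of the NC list. KMT2D-KD had 8.73 at nearly the same coordinates, chr7:92749717-92750486, with 22 fragments. The background was 1.85 for the NC interval and 1.64 for the KMT2D-KD one. The strongest in KMT2D-KD lay at chr7:92765188-92766752, with 28 fragments, 11.0-fold enrichment and −log10 q 20.6. The bases around both summits are given as the strongest H3K4me1 sites at these genes.
CDK6, NC, chr7:92750183-92750382: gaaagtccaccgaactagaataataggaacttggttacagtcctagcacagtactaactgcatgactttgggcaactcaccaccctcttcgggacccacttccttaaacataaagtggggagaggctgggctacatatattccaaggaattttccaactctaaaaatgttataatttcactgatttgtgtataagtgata
CDK6, KMT2D-KD, chr7:92766417-92766616: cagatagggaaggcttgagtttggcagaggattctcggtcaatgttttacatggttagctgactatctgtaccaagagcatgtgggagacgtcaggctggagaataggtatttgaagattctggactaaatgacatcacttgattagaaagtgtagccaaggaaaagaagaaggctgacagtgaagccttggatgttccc
Neither contained any of the 5 motifs, and G and C made up 40.5% and 44.5% of the bases.

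**Figure D4:**
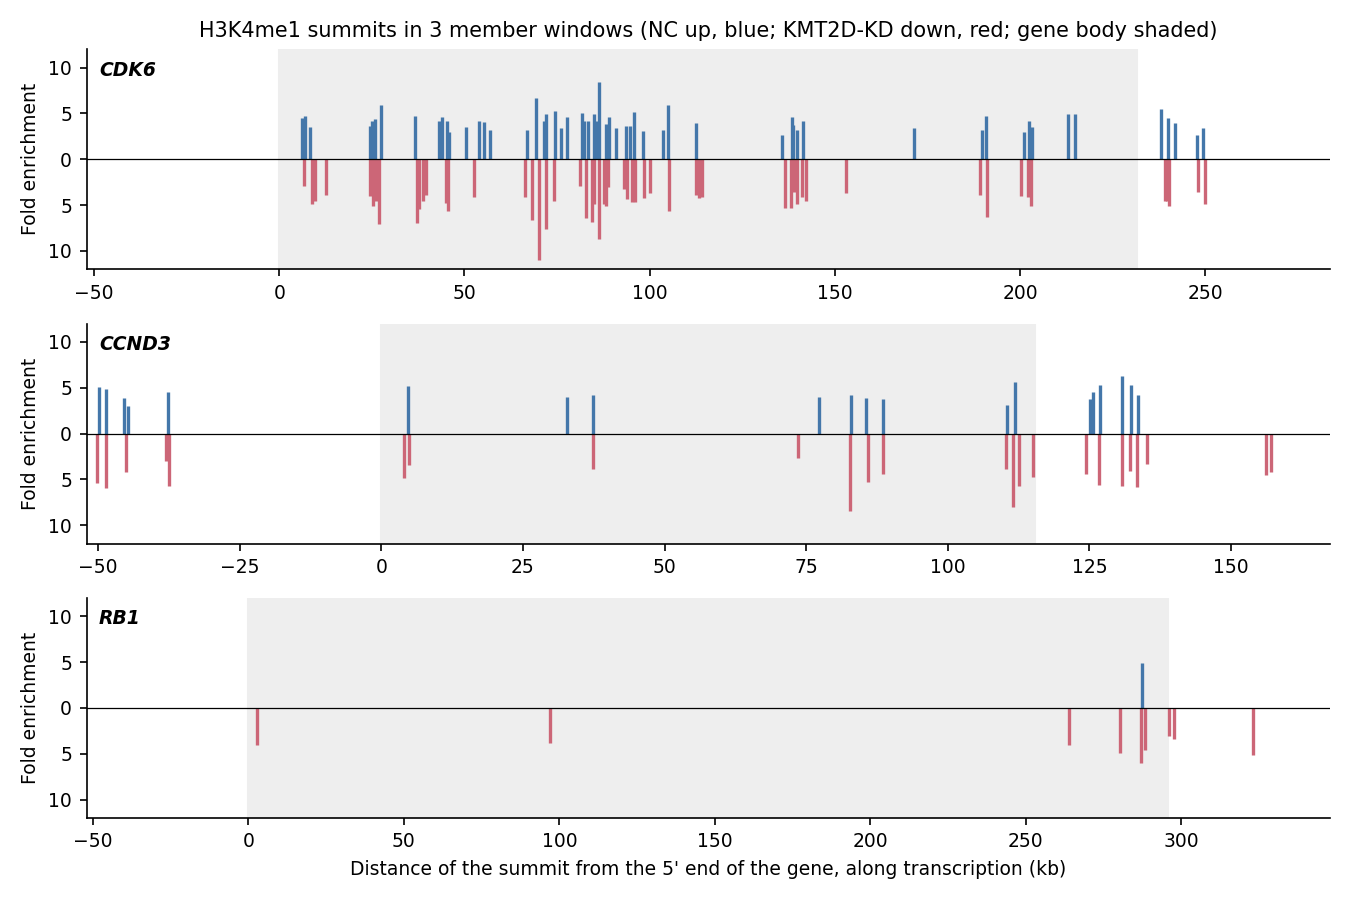
Summits of H3K4me1 intervals along CDK6, CCND3 and RB1, by distance from the 5′ end in kb along transcription, with fold enrichment upward for NC (blue) and downward for KMT2D-KD (red); the gene body is shaded. CDK6 summits run along the gene in both lists, while at RB1 6 of 9 KMT2D-KD summits and the single NC summit lie 250 to 300 kb from the 5′ end.

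RB1 (ENSG00000139687.16, chr13:48303744-48599436, plus strand), which encodes the substrate of both kinases, had 1 interval in NC and 9 in KMT2D-KD, over 328 and 4295 bases. The log2 ratio of 3.17 had a counting interval of 0.32 to 8.62, which left out 0 but included the 0.51 of the whole lists. Of the 14764 genes with intervals in both lists, 99.6% had a lower ratio. The NC interval, chr13:48590786-48591113, lay in an intron 287 kb into the gene, with 13 fragments and 4.91-fold enrichment. KMT2D-KD had chr13:48590013-48591553 at the same place, with 15 fragments, a fold enrichment of 6.07 and a width of 1541 bases. With equal list sizes 6 KMT2D-KD intervals remained, and 2 had a −log10 q of at least 5.

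The other 8 KMT2D-KD intervals of RB1 overlapped none of the NC list, and had 7 to 13 fragments each, so that several lay close to the lowest number that was listed. One, chr13:48306355-48306540, lay 2611 bases inside the 5′ end in an intron. Despite the length of the window, 396 kb, the density at RB1 was low, 0.253 per 100 kb in NC and 2.27 in KMT2D-KD, above 24.7% and 39.8% of all genes. The median background at RB1 was 1.0 in both lists. The sequence at the NC summit is shown as the site that both lists shared.
RB1, NC, chr13:48590948-48591147: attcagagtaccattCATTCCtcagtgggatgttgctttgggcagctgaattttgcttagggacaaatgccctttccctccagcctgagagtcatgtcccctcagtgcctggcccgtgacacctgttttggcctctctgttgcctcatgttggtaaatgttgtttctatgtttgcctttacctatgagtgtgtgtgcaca
Its capitals are a TEAD match on the opposite strand.

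**Figure D5:**
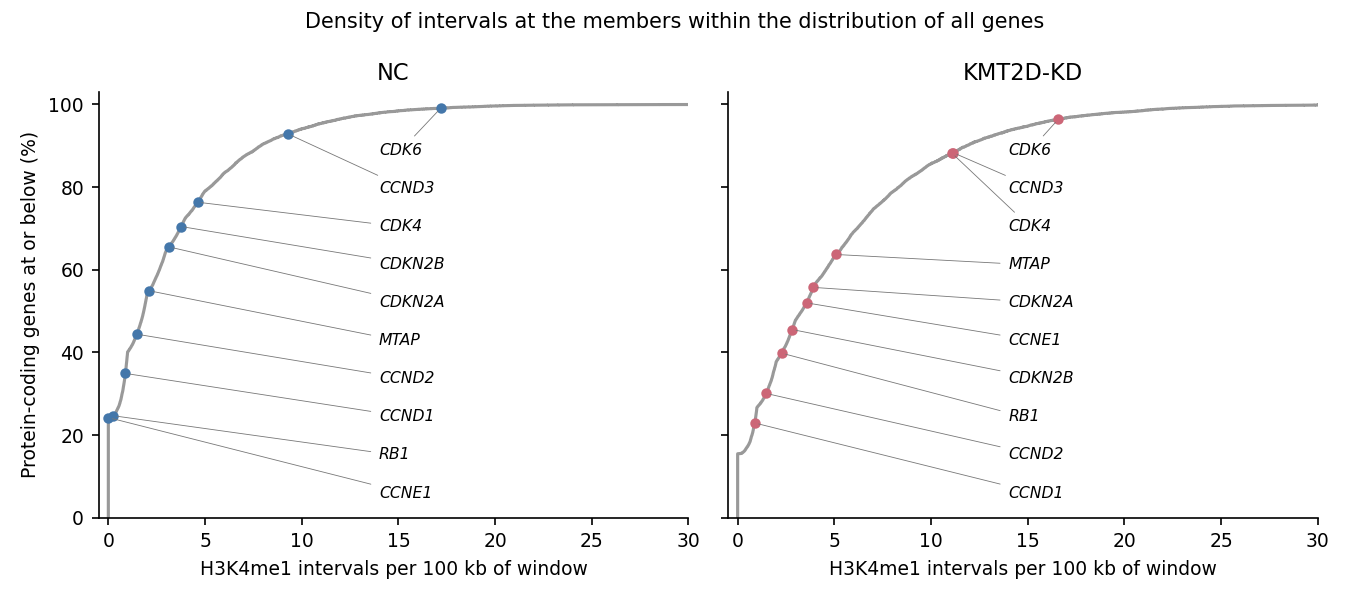
Cumulative share in % of all 20033 protein-coding genes (grey line) by H3K4me1 intervals per 100 kb of window, in NC (left) and KMT2D-KD (right), with the 10 genes as points; a few genes beyond 30 per 100 kb are not drawn. CDK6 lies at 17.2 and 16.6, near the top of both distributions, and CCND1 at 0.882 in both.

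CCNE1 (ENSG00000105173.14, chr19:29811991-29824312, plus strand), the E2F target that encodes cyclin E1, had no interval in NC and 4 in KMT2D-KD over 1216 bases. A count of 0 allows up to 3 intervals in NC, and the counting interval of the log2 ratio reached down to -0.60, so that a difference was not detectable at these numbers. The nearest NC interval was 63528 bases from the 5′ end, outside the window. Of the 4 in KMT2D-KD, 1 lay in the gene body, chr19:29813309-29813514, in an intron 1318 bases from the 5′ end, where 10 fragments gave 4.17-fold enrichment. Their −log10 q values were all under 5, and 2 of the 4 remained with equal list sizes.

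Promoter-proximal H3K4me1 was counted within 1000 bases of the 5′ end, where 0 of the 10 genes had an NC interval and 2 had a KMT2D-KD interval (MTAP and CDK4), against 6.43% and 11.9% of all genes. With any annotated transcript start in place of the 5′ end, there were 2 in NC (CCND3 and CDK4) and 4 in KMT2D-KD (MTAP, CCND3, CDK4 and CCNE1), against 17.4% and 26.6% of all genes by the same rule. CCND3 joined through internal starts, and its RefSeq start at position 41939205 lay 494 bases from an NC interval and 15 bases from a KMT2D-KD interval. Its RefSeq starts at 41941808 and 42048688 lay farther away, at 1653 and 3017 bases in NC. In KMT2D-KD they lay at 1474 and 2100 bases.

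The KMT2D lists were short, with 238 (NC) and 318 (KMT2D-KD) intervals, as were the EBF2 lists with 293 and 311, and none of these lay in any of the 10 windows. Of all genes, 1.25% and 1.57% had a KMT2D interval in the window, and 1.32% and 1.68% an EBF2 interval, so that a count of 0 of 10 says little about these genes. The closest was 0.212 Mb from CCND3, and the next 0.276 Mb from CCND1, while for CDKN2A the nearest in each of the 4 lists lay at least 9.92 Mb away.

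For all 5 motifs and both lists, the share of the whole list lay within the counting interval of the share at these genes. AP-1 letters were in 10 of 95 NC summit windows (10.5%, exact 95% interval 5.16 to 18.5) and in 8.06% of the NC list, and in 10 of 122 KMT2D-KD windows (8.20%, 4.0 to 14.6) and 7.78% of that list. TEAD letters were in 16.8% in NC and 9.84% in KMT2D-KD, against 12.4% and 12.2%. GATA letters were in 11.6% and 11.5%, against 13% and 11.5%. FOX letters were in 6.32% and 3.28%, against 3.16% and 2.74%. E2F letters were in 0 of 95 and 0 of 122, with exact upper bounds of 3.81% and 2.98% (3.16% and 2.46% by the limit of 3 counts), against 0.145% and 0.151% of the whole lists.

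The wider G1/S pathway was read from 23 further genes, including the p21 and p27 inhibitor genes, CDK2, the RB1 relatives, the E2F family and the replication licensing gene CDC6. More intervals in KMT2D-KD were present at 17 of the 23, fewer at 4 (TFDP2, SKP2, CCNH and CDKN2C) and equal numbers at 2 (CCNE2 and RBL2), beside the 67.8% and 9.88% of all genes with more and with fewer. Their median was 5 in NC and 9 in KMT2D-KD, against 3 and 5 over all genes. Every one of the 23 had an interval in at least 1 list, and 1 in NC and 5 in KMT2D-KD had one within 1000 bases of the 5′ end, beside 6.43% and 11.9% of all genes.

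Most intervals in NC were at TFDP2, which encodes an E2F dimer partner, with 21 in NC and 20 in KMT2D-KD. CDC6 followed with 19 and 36, and CDKN1B, which encodes p27, with 15 and 17. The largest differences in number were at CDC6, at E2F1 with 9 and 20, and, tied, at CDK7 with 4 and 10 and RBL1 with 8 and 14. In NC, 1 of the CDC6 intervals lay in the gene body and the others beside it.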

How the data were processed

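H3K4me1, KMT2D and EBF2 ChIP-seq of SW1990 cells was used as 6 peak lists, 1 per library. Per the study's methods, the authors filtered reads with in-house perl scripts and aligned them with bwa. The submitters' processing notes name BWA, MACS2, HOMER and hg38, without versions. Settings and the handling of duplicates were not given in the sources used here. Each list was called against the single input, with no pooling stated. The deposited narrowPeak lists give a fold enrichment at the summit, which is a ratio, and −log10 p-values and −log10 q-values. These are the authors' values.

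Groups came from the sample titles. Genes were those of GENCODE release 44, starts were counted from 1, and an overlap was at least 1 base. Fragments and background were solved from the fold enrichment, (fragments + 1) / (background + 1), and the Poisson p-value. A whole number, within 0.001 in −log10 p, came back for 100% of intervals in the NC H3K4me1 list and 99.998% in the KMT2D-KD one, after a check on simulated data. Depth is that background relative to the fragment length. Ratios of counts carry exact binomial 95% intervals, and shares exact (Clopper-Pearson) intervals. Both cover counting error only. No test was made and no p-value computed, because each group had 1 library. The 200 bases around summits were read from the reference with Python 3.11.15, numpy 2.4.6, pandas 2.3.3 and scipy 1.17.1.

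Named were all 10 genes, and in each window and list the interval with the highest −log10 q, the nearest to the 5′ end and the strongest absent from the other list; genes in and beside the stretch at CDKN2A, and 3 with the most similar stretch; and of the 23 G1/S genes the 3 with most intervals in NC, the 3 with the largest differences and those with none. Counts at alternative windows, thresholds, list sizes and merging distances were also made. The genes, lists and rules were chosen with earlier results of these data known. The input library has no list of its own.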

Additional observations from a re-analysis of the deposited data

How the results depend on the processing

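Of the values that answer a comparison, 31 stayed near the reported value under another setting and 11 moved, 1 of them with a change of sign. With covered bases in place of the number of intervals, the ratios of 9 single genes kept their direction or stayed within counting error. Over the 8 joined windows the log2 ratio of 0.36 became 0.86 at −log10 q 5 or more and -0.046 with equal list sizes, and lay between 0.23 and 0.44 with the gene body alone, with 20 kb or 100 kb either side, or after merging within 1000 bases. With −log10 q of at least 5, intervals were left at 4 genes in NC and 5 in KMT2D-KD. In the gene body alone they were left at 6 genes in each list, down from 9 in NC and 10 in KMT2D-KD. CDKN2A was among the 6 only in NC, and CCNE1 only in KMT2D-KD. The fall in NC was counted among the 31. At the 5′ end, 3000 bases either side gave 2 genes in NC and 4 in KMT2D-KD, any transcript start gave 2 and 4, and equal list sizes or −log10 q of at least 5 gave 0 in KMT2D-KD. Apart from any transcript start, the share of all genes was not computed under these alternative settings. The counts of genes under them are therefore not read against the genome. The distance between the intervals flanking CDKN2A was 118 kb to 163 kb under 6 alternatives. Differences in list size and strength between the 2 libraries cannot be told apart from a difference between the conditions. No H3K4me1 interval under 7 fragments was listed. No paired analysis was possible because each target and condition had 1 library.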
